A study of Saccharomyces cerevisiae with 8 samples.

Results

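Subtelomeric transcripts are taken here as the annotated transcripts nearest to the ends of the 16 nuclear chromosomes of budding yeast. On each chromosome the smallest start and the largest end in the authors' annotation were found, and a transcript was a member when it started within 30 kb of the first or ended within 30 kb of the last. This rule uses position alone, and it picked 341 of the 4928 annotated transcripts. The 32 chromosome ends held 1 to 16 members each, with a median of 10.5.

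The study measured newly made RNA by 4tU-seq, which sequences the RNA that cells have marked with 4-thiouridine (4tU) during a short pulse. Its question was what the Mediator kinase Srb10 (Cdk8) does to transcription. Cells growing at 30 °C in medium without tryptophan were taken from an OD600 of 0.1 to 0.8 and given 6 µM 1-NA-PP1 or an equal volume of the solvent DMSO for 12 minutes. Some were afterwards kept at 37 °C for 12 minutes (heat shock). In this order heat shock adds to the time since 1-NA-PP1 or DMSO was given, and no matching wait is listed for steady state. That time, library depth and heat thus moved together over the groups and cannot be told apart. Labelling used 5 mM 4tU for 5 minutes, and libraries were made from 100 ng RNA. All 4 groups (DMSO at steady state, 1-NA-PP1 at steady state, DMSO under heat shock, 1-NA-PP1 under heat shock) hold 2 libraries and share 1 strain of mating type alpha. It carries srb10Δ::KanMX together with ura3Δ0, trp1Δ63, met15Δ0, lys2Δ0, leu2Δ0, his3Δ200 and ade2::hisG, and the centromeric TRP1 plasmid pSH599 supplies srb10as-1, whose Y236G change lets 1-NA-PP1 block the kinase. No group has an unmodified kinase, so an action of 1-NA-PP1 on other targets and the loss of Srb10 activity cannot be told apart. Nothing in the labels says that replicates came from separate cultures, and p-values therefore measure only the spread between these libraries, which may be technical.

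As background, yeast telomeres and the sequences beside them are bound by Rap1 and the Sir proteins, which spread along deacetylated histones and silence nearby genes, a phenomenon called telomere position effect. Farther inside, broad subtelomeric domains are held at low levels by the histone deacetylase Hda1 and by the corepressor Tup1-Cyc8, and the Srb8 to Srb11 module of Mediator, to which Srb10 belongs, takes part in Tup1-dependent repression. Subtelomeres are known for gene families used in particular conditions, such as sugar use, iron and sulfur scavenging, drug and arsenic resistance and cell wall mannoproteins.

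The annotation does not reach the telomeres themselves. In the reference assembly R64 the outermost annotated transcripts lay 1795 to 22886 bases from the left ends and 2804 to 33885 bases from the right ends, with a median gap of 8934 bases, and 124 reference genes lie beyond them. Measured from the true ends, members lay 1.80 to 61.2 kb inside, with a median of 26.6 kb, and 204 of the 341 lay within 30 kb. No flocculin gene or Y' element helicase of the lists used here was found by name in the annotation. The 6 listed vitamin B1 or B6 genes found there lay outside the windows. Of the members, 23 (6.74%) have a near-identical copy elsewhere in the genome, against 1.61% of the other features, and 100 (29.3%) overlap a feature on the opposite strand, against 37.6%. Whether reads were counted by strand is not given in the sources used here, so values of members with a copy or an opposite-strand overlap are uncertain and are marked as such.

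To show what lies before the members with the largest changes, the 300 bases that end just before the annotated start were read from the reference for the 3 largest rises and 3 largest falls under heat shock with DMSO, in genome build sacCer3. They are written in the sense of the gene, 5′ to 3′, with 2 motifs in capitals. One is the stress response element CCCCT or its reverse complement AGGGG, which Msn2 and Msn4 are known to bind, and the other is TTCNNGAA, a pair of inverted units of the heat shock element bound by Hsf1, which reads the same on both strands. These motifs do not overlap each other in any of the 6 sequences.
DSE4, minus strand, chrXIV:759146-759445: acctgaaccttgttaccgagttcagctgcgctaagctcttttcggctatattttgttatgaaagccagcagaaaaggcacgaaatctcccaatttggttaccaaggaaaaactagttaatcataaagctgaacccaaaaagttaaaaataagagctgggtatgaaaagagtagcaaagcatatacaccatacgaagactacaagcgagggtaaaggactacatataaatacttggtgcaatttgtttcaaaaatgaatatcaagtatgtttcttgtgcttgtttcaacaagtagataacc
POT1, minus strand, chrIX:41465-41764: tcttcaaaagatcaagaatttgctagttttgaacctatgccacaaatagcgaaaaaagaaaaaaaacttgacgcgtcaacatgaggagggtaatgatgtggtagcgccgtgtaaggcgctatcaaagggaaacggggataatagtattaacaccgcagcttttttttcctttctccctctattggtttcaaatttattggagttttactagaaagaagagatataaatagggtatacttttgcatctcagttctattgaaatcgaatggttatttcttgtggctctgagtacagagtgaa
HPF1, minus strand, chrXV:31661-31960: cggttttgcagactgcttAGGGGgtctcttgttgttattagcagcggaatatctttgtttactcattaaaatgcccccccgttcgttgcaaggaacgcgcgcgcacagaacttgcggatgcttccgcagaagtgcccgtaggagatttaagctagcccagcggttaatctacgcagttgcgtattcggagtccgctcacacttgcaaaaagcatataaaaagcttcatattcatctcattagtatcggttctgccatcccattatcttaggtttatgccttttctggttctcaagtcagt
FEX1, plus strand, chrXV:1076418-1076717: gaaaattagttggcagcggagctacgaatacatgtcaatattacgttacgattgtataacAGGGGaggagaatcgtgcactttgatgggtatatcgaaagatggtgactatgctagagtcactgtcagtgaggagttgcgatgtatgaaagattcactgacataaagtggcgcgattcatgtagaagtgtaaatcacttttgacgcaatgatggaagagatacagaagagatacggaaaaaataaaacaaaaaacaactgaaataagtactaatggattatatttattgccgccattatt
URA1, plus strand, chrXI:24873-25172: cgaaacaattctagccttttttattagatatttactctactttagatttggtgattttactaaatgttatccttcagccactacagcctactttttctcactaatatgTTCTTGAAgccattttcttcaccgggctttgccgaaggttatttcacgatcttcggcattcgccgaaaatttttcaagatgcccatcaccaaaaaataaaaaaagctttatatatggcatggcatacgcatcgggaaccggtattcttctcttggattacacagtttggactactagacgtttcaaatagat
ZRT1, plus strand, chrVII:20633-20932: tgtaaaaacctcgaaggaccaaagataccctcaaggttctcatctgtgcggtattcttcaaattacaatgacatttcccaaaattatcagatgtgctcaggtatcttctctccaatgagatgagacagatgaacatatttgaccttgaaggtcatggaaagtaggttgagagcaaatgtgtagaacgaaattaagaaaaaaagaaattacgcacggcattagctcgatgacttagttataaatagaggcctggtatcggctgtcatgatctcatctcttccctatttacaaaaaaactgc

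The sequences before HPF1 and FEX1 each hold 1 stress response element, and that before URA1 holds 1 TTCNNGAA. Over windows of the same length, the stress response element was found before 86 members (25.2%) and before 23.0% of all features, and TTCNNGAA before 46 members (13.5%) and 14.2% of all features. A match describes these letters and no more.

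Members made less RNA than the rest of the genome in every library. The median level with DMSO at steady state was 41.3 CPM per kilobase (TMM-scaled CPM divided by transcript length) over the 341 members and 76.0 over the 4587 other features, a ratio of 0.544. Library by library that ratio was 0.554 and 0.544 with DMSO at steady state, 0.562 and 0.594 with 1-NA-PP1 at steady state, 0.611 and 0.608 with DMSO under heat shock, and 0.622 and 0.625 with 1-NA-PP1 under heat shock. The ratio was thus higher in each heat shock library than in each steady state library, and the groups did not overlap. With DMSO at steady state 170 members (49.9%) lay below the first quartile of the other features, and 69 (20.2%) lay above their upper quartile.

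The level fell with nearness to the outermost transcript. With DMSO at steady state the median was 24.4 CPM per kilobase for members 0 to 10 kb inside, 39.0 for those at 10 to 20 kb and 66.5 for those at 20 to 30 kb. Features at 30 to 60 kb had a median of 83.3 CPM per kilobase and those beyond had 75.2, so the low levels ended near the edge of the window. Near-identical copies were uneven over the same bins, with 18 in the outermost (16.2%), 3 in the next and 2 in the innermost, and their part in the low levels was not tested. Without features that have copies the ratio of medians was 0.603.

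**Figure D1:**
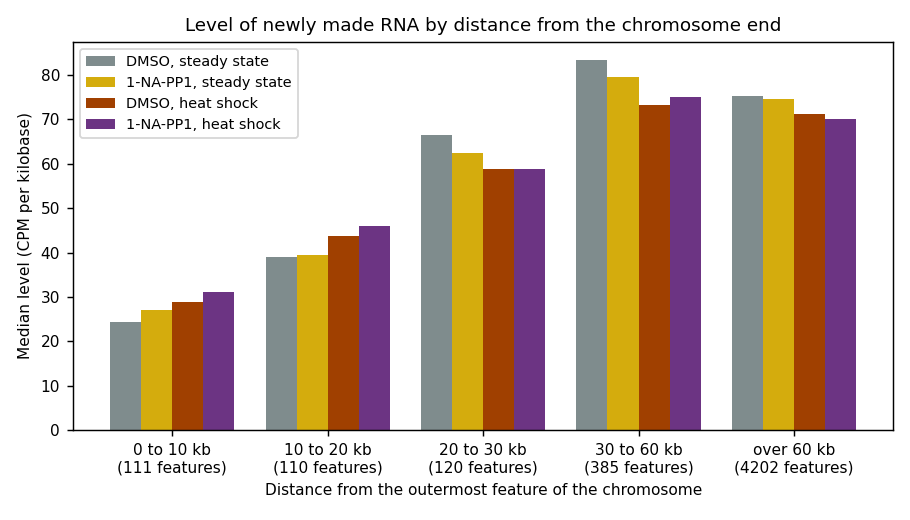
Median level of newly made RNA in CPM per kilobase (vertical axis, from 0) by distance from the outermost annotated transcript (horizontal axis) in the 4 groups, each bar being the median over features of the mean of 2 libraries. With DMSO at steady state the bars rise from 24.4 in the outermost bin to 83.3 at 30 to 60 kb, and in the 2 outermost bins the heat shock bars stand above those of steady state.

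The member with the highest level per length with DMSO at steady state was YLR460C, an oxidoreductase-like protein with a near-identical copy, at 1318 CPM per kilobase. It was followed by the signalling adaptor BMH1 at 829, EGT2, a cell wall protein of daughter cell separation, at 687, GLC8, a regulator of a protein phosphatase, at 619.8, and ADH6, an alcohol dehydrogenase, at 615 CPM per kilobase. At the other extreme HMRA1, a gene of the silent mating cassette HMR, was at 0 counts in each of the 8 libraries, which in the shallowest leaves room for 0.220 CPM. DAN1, an anaerobic cell wall mannoprotein, had 0 to 2 counts a library, and YPL261C and PXP3 had 1 to 13. These 4 were too low to test, which left 337 of the 341 members among the 4901 features tested.

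All members together took 5.26% and 5.24% of the counts with DMSO at steady state, 5.36% and 5.45% with 1-NA-PP1 at steady state, 5.91% and 5.95% with DMSO under heat shock and 6.23% in both libraries with 1-NA-PP1 under heat shock. The share was higher in all 4 heat shock libraries. EGT2 and DSE4 together made up 0.305% to 0.381% of the steady state libraries and 1.10% to 1.25% of the heat shock libraries. Without this pair, chosen after their values were seen, the members took 4.92% and 4.94% with DMSO at steady state and 4.81% and 4.80% with DMSO under heat shock, so the share was then lower under heat shock. With 1-NA-PP1 it was 4.98% and 5.07% at steady state and 4.99% and 5.02% under heat shock, and those libraries overlapped. Library depth moved with temperature as well, at 60372371 to 65134744 counts a library at steady state and 14680275 to 17743527 under heat shock, and the part of depth in these shares was not tested.

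Heat shock with DMSO changed 213 of the 337 tested members, with rises more frequent than falls unless the libraries were scaled by the factors that underlie the authors' normalised counts (the deposited factors). Calls rest on a Benjamini-Hochberg adjusted p under 0.05 from edgeR's quasi-likelihood test, fitted to all 4901 features and 8 libraries. By this rule 127 members (37.7%) rose, where 29.6% of all features tested did, and 86 (25.5%) fell, where 28.9% of all features did. The median log2 change of the members was 0.06, against -0.01 for the other features, a difference of 0.08. Rises of at least 1 on the log2 scale were found in 40 members (11.9%) and in 4.91% of other features, and falls of at least 1 in 19 members (5.64%) and in 4.91% of others. These counts depend on the scaling: with the deposited factors, which moved the median of all features by -0.32, 60 members were called higher (9.92% of all features were) and 135 lower (46.1% of all features). In the authors' deposited table, members higher numbered 57 (8.88% of all features were) and members lower 121 (41.8% of all features).

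With 1-NA-PP1, heat shock raised 119 members (35.3%, against 25.3% of all features tested) and lowered 83 (24.6%, against 28.1%). The median log2 change was 0.10 over members and -0.03 over other features. Without replicate 1 of 1-NA-PP1 under heat shock 55 members were called lower (20.4% of all features). With the deposited factors, which moved the median of all features by -0.66, 15 members were called higher (1.84% of all features) and 110 lower (38.9% of all features), and the authors' deposited table had 8 higher (1.14% of all features) and 50 lower (18.0% of all features). The 2 heat shock contrasts share no library. Of the members called higher, 106 were called in both, which is 83.5% of those with DMSO and 89.1% of those with 1-NA-PP1, and of those called lower 66 were called in both, 76.7% and 79.5%. Among the other features the shares called in both were 71.0% and 83.7% for higher and 76.8% and 79.0% for lower.

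**Figure D2:**
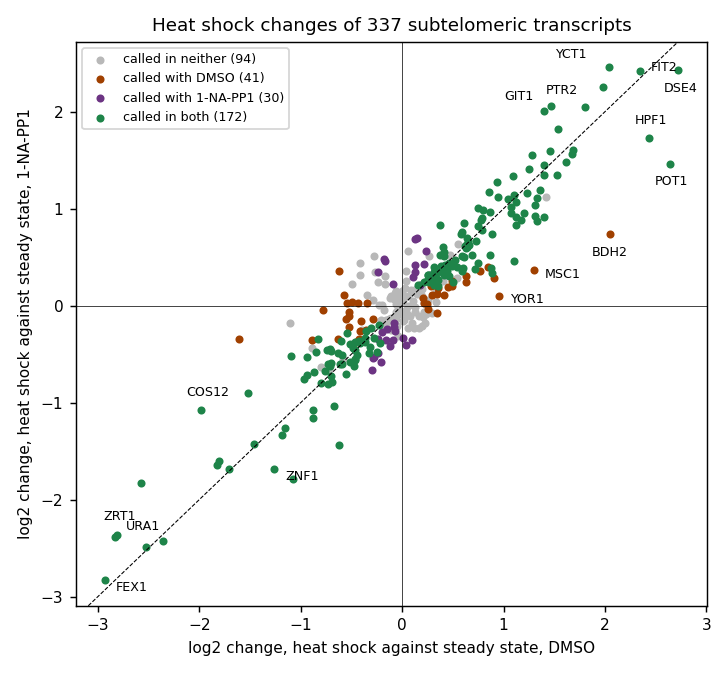
Log2 change under heat shock of the 337 tested members with DMSO (horizontal axis) and with 1-NA-PP1 (vertical axis), with the dashed line marking equal change and colours marking in which contrast a member was called. In both contrasts 172 members were called, among them POT1, which lies well below the line, as do BDH2, MSC1 and YOR1. No member was called by edgeR for the difference between both changes (smallest adjusted p = 0.357). Changes are relative to the bulk of features as TMM sets it.

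The largest rise with DMSO was that of DSE4. DSE4, a glucanase that daughter cells secrete to split from the mother, had 785 and 668 CPM with DMSO at steady state, 891 and 948 with 1-NA-PP1, 4828 and 4776 under heat shock with DMSO, and 4881 and 4992 under heat shock with 1-NA-PP1. All 4 heat shock libraries were far above the steady state ones. Its log2 change was 2.72 (SE 0.10, adjusted p = 1.55e-06) with DMSO and 2.42 (SE 0.10, adjusted p = 2.1e-06) with 1-NA-PP1. EGT2 rose from 2333 and 2162 CPM to 6873 and 7538 with DMSO, a log2 change of 1.68 (SE 0.09), and overlaps a feature on the opposite strand. HPF1, a mannoprotein that reduces wine haze, had 297 and 243 CPM with DMSO, against 442 and 560 with 1-NA-PP1 at steady state, then 1489 and 1427 with DMSO, against 1659 and 1651 with 1-NA-PP1 under heat shock. The libraries of the 4 groups did not overlap, but neither difference between treatments was called by edgeR (adjusted p = 0.0679 at steady state and 0.537 under heat shock). The log2 change of HPF1 under heat shock was 2.43 (SE 0.13) with DMSO and 1.72 (SE 0.13) with 1-NA-PP1.

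POT1 had the second largest rise with DMSO. POT1, the thiolase of peroxisomal fatty acid breakdown, had 4.00 and 3.50 CPM with DMSO at steady state, 7.04 and 12.1 with 1-NA-PP1, 26.3 and 20.2 under heat shock with DMSO and 23.4 and 29.4 under heat shock with 1-NA-PP1. Its log2 change was 2.64 (SE 0.27) with DMSO and 1.46 (SE 0.26) with 1-NA-PP1, and it overlaps an opposite-strand feature. BDH2, a butanediol dehydrogenase-like protein, rose by 2.05 on the log2 scale (SE 0.30, adjusted p = 0.000677) with DMSO, from 114 and 94.3 CPM to 475 and 385. With 1-NA-PP1 it stood at 206 and 430 CPM before and 504 and 558 during heat shock, a log2 change of 0.74 (adjusted p = 0.0595) that was not called. YAT1, a carnitine acetyltransferase, rose by 1.80 and 2.05 on the log2 scale with DMSO and 1-NA-PP1, DIP5, the permease for glutamate and aspartate, by 1.68 and 1.56, and AQY1, an aquaporin, by 1.61 and 1.49. All 3 overlap an opposite-strand feature.

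The largest fall with DMSO was that of FEX1. FEX1, a fluoride exporter with a near-identical copy, had 26.8 and 27.0 CPM with DMSO at steady state and 3.01 and 4.11 under heat shock, a log2 change of -2.93 (SE 0.22, adjusted p = 2.23e-05). With 1-NA-PP1 it had 27.7 and 37.8 CPM and then 5.14 and 4.06, a log2 change of -2.83. URA1, dihydroorotate dehydrogenase of pyrimidine synthesis, had 507 and 543 CPM with DMSO, against 387 and 218 with 1-NA-PP1 at steady state, and 72.3 and 75.3 with DMSO, against 64.0 and 51.6 with 1-NA-PP1 under heat shock. No heat shock library overlapped a steady state library, and the log2 change was -2.83 (SE 0.25) and -2.39 (SE 0.24). ZRT1, the high-affinity zinc transporter, fell from 463 and 327 CPM to 53.1 and 59.9 with DMSO, a log2 change of -2.81 (SE 0.29), and by 2.36 on the log2 scale with 1-NA-PP1. ZPS1, a zinc-regulated cell surface protein, had 37.1 and 17.9 CPM and then 5.23 and 3.96, a log2 change of -2.57 (SE 0.44). With DMSO at steady state the replicates of ZRT1 and ZPS1 lay farther apart than those of the other members named here for this contrast.

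ACM1, an inhibitor of the anaphase-promoting complex, fell from 54.8 and 50.5 CPM to 9.92 and 8.36 with DMSO, a log2 change of -2.52 (SE 0.11), and by 2.49 with 1-NA-PP1. AIM20, a gene of poorly known role that overlaps an opposite-strand feature, had log2 changes of -2.36 and -2.42. VAC17, which links the vacuole to myosin for inheritance by the bud, had -1.83 and -1.65, and KIN3, a protein kinase with mitotic roles, had -1.81 and -1.60, both with an opposite-strand overlap. YML119W, of unknown function, had -1.71 and -1.68, and UPA1 had -1.52 and -0.90. Among the 10 largest falls with 1-NA-PP1 was also YEL073C, with a near-identical copy, at -1.79. HXK2, the main hexokinase in glucose, was outside the naming rule and was chosen after its values were seen because it lies near ZRT1, with 427 and 433 CPM falling to 176 and 135 with DMSO, a log2 change of -1.46 (SE 0.14).

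**Figure D3:**
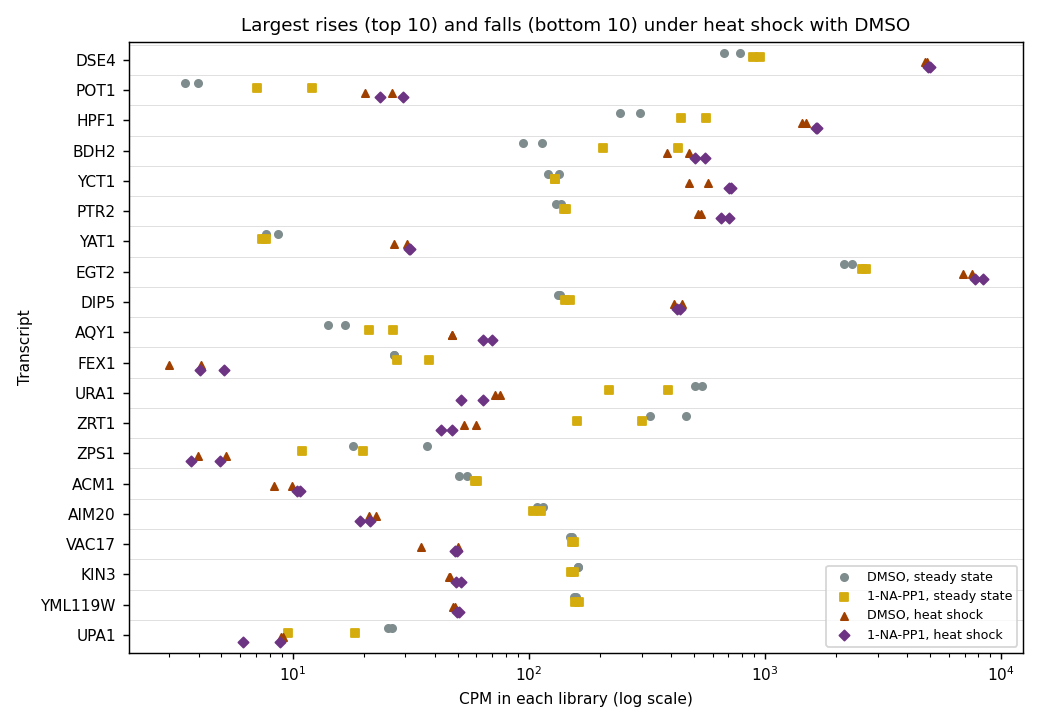
CPM in each of the 8 libraries (horizontal log axis) of the 10 members with the largest rises and the 10 with the largest falls under heat shock with DMSO, 1 point a library and 1 colour a group. The libraries of heat shock stand apart from those of steady state with DMSO in all 20, as the rule that chose them required, and POT1, HPF1 and BDH2 stand higher with 1-NA-PP1 than with DMSO at steady state.

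The list of iron and copper uptake, which was drawn up with results of these data known, held 12 members. Of these, 10 were called higher and 0 lower with DMSO, where 29.6% and 28.9% of all features tested were. The same counts held with 1-NA-PP1, where 25.3% of all features tested were called higher and 28.1% lower. The list's median log2 change was 0.90 and 0.94, beside -0.01 and -0.02 over all features tested. With the deposited factors the medians were 0.57 and 0.32, and 8 and 2 members were called higher, where 9.92% and 1.84% of all features were. The 12 genes of the same list outside the subtelomeres had a median of 0.90 with DMSO, and 11 of them were called higher.

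Among these genes FIT2, a cell wall mannoprotein that holds siderophores, had 1.78 and 1.67 CPM with DMSO at steady state, 2.11 and 2.40 with 1-NA-PP1, 11.1 and 6.38 under heat shock with DMSO and 11.7 and 12.4 under heat shock with 1-NA-PP1. Its heat shock libraries were all above those of steady state, at log2 changes of 2.35 (SE 0.24) and 2.42 (SE 0.23). ARN1, a siderophore transporter, had 33.7 and 34.9 CPM and then 106 and 92.9 with DMSO, a log2 change of 1.53 (SE 0.11), and 1.82 (SE 0.12) with 1-NA-PP1. The smallest changes were those of ENB1, the enterobactin transporter, at 0.54 (adjusted p = 0.0677) and of FIT1, at 0.22 (adjusted p = 0.287) with DMSO.

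Of the sulfur, methyl and peptide scavenging list, 13 members were tested. With DMSO 6 were called higher and 1 lower (29.6% and 28.9% of all features were). With 1-NA-PP1 10 were called higher and 1 lower (25.3% and 28.1% of all features). The median log2 change was 0.24 and 0.42, and with the deposited factors it was negative, at -0.06 and -0.19. Single libraries weighed on these counts, with as few as 4 called higher in each contrast when 1 was left out. With DMSO this held without either DMSO library of steady state or either 1-NA-PP1 library of heat shock, and with 1-NA-PP1 without replicate 2 of its heat shock group (5 without replicate 1). The single lower call ranged from 0 to 2 with DMSO and from 0 to 1 with 1-NA-PP1. YCT1, a cysteine transporter, had 120 and 134 CPM with DMSO, against 130 and 129 with 1-NA-PP1 at steady state, and 475 and 574 with DMSO, against 715 and 702 with 1-NA-PP1 under heat shock. Its log2 change under heat shock was 2.04 (SE 0.10) with DMSO and 2.46 (SE 0.10) with 1-NA-PP1. Under heat shock the difference between both treatments was not called (adjusted p = 0.0967) and turned to -0.20 with the deposited factors. PTR2, the transporter of di- and tripeptides, had 137 and 131 CPM, 143 and 140, 535 and 522, and 651 and 701 in the same 4 groups, and its difference between treatments under heat shock was not called either. The lowest changes with DMSO were those of SAM4, a homocysteine methyltransferase, which was called lower, and of MHT1, another such enzyme, which was not called.

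Of 11 tested members of the maltose, isomaltose and sucrose list, 7 were called lower and 2 higher with DMSO (28.9% and 29.6% of all features were). With 1-NA-PP1 6 were called lower and 2 higher (28.1% and 25.3% of all features). The median log2 changes were -0.72 with DMSO and -0.46 with 1-NA-PP1. Without replicate 1 of DMSO at steady state 4 were called lower with DMSO, and without replicate 1 of 1-NA-PP1 under heat shock 4 with 1-NA-PP1. These medians were also negative with the deposited factors, at -1.05 and -1.12. ZNF1, an activator of respiratory genes in the list, had 12.7 and 13.2 CPM and then 5.83 and 4.91 with DMSO, a log2 change of -1.26 (SE 0.16), and it overlaps an opposite-strand feature. MAL31, a maltose permease, had 33.0 and 33.6 CPM and then 16.3 and 13.0 with DMSO, a log2 change of -1.18 (SE 0.13), and -1.34 (SE 0.13) with 1-NA-PP1. SUC2, invertase, was chosen after its values were seen and fell from 61.5 and 63.8 to 39.0 and 35.7 CPM. The 2 members that rose were YPR196W, a regulator resembling the maltose activators, at 0.80, and MAL13, a maltose activator, at 0.41.

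All 4 general stress genes among the members were called higher with DMSO, which were BDH2, MSC1, HSP31 and BDH1, and 1 of them, HSP31, with 1-NA-PP1 (3 without replicate 2 of 1-NA-PP1 at steady state). The list's median was 0.96 with DMSO and 0.50 with 1-NA-PP1, the latter turning to -0.13 with the deposited factors. MSC1, a protein linked to meiotic recombination, had 200 and 168 CPM with DMSO, against 259 and 381 with 1-NA-PP1 at steady state, and 484 and 421 with DMSO, against 360 and 464 with 1-NA-PP1 under heat shock. With 1-NA-PP1 its libraries overlapped between temperatures. HSP31, a chaperone and methylglyoxalase, had the same log2 change of 0.63 in both contrasts. Outside the subtelomeres 19 of 23 tested genes of this list were called higher with DMSO. Of all features tested 29.6% were called higher with DMSO and 25.3% with 1-NA-PP1.

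The remaining lists were small or mixed. Shares of all features called were 29.6% higher and 28.9% lower with DMSO, and 25.3% and 28.1% with 1-NA-PP1. Of 7 genes of arsenic and multidrug resistance 4 were called higher and 2 lower with DMSO, and 3 and 2 with 1-NA-PP1, with medians of 0.25 and 0.10 that turned negative with the deposited factors, at -0.05 and -0.45. With DMSO 2 were called higher without replicate 1 of DMSO under heat shock and 1 lower without either DMSO library of steady state, and with 1-NA-PP1 2 were higher and 1 lower without replicate 1 of 1-NA-PP1 under heat shock. YOR1, a multidrug exporter of the plasma membrane, rose by 0.96 on the log2 scale with DMSO, while ADH4, an alcohol dehydrogenase in the list, fell by 0.54. With 1-NA-PP1 the heat shock change of YOR1 was 0.10 and not called. At steady state its log2 difference of 1-NA-PP1 against DMSO was 1.20, not called by edgeR (adjusted p = 0.0679) but called by DESeq2 (adjusted p = 9.29e-05). Of 3 aryl-alcohol dehydrogenases 2 were called higher in each contrast, among them AAD4, at 1.33 with DMSO, which overlaps an opposite-strand feature. Of 3 phosphate genes 1 was called higher with DMSO and 2 with 1-NA-PP1, with GIT1, a glycerophosphoinositol transporter, at 1.46 and 2.06, and 1 was called with 1-NA-PP1 without either 1-NA-PP1 library of heat shock. BIO2, biotin synthase, rose by 0.64 and 0.61.

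Families that define subtelomeres were thinly covered. Shares of all features called were those given for the lists above. Of 3 COS family members tested 1 was called lower in each contrast, COS12, which had 2.81 and 2.43 CPM and then 0.661 and 0.660 with DMSO, a log2 change of -1.98 (SE 0.27). All 3 were called lower with DMSO without replicate 2 of DMSO under heat shock, and 2 with 1-NA-PP1 without replicate 2 of 1-NA-PP1 at steady state. Of 2 seripauperin and DAN wall protein members tested 1 was called higher with DMSO, PAU15, at 0.63, which has a near-identical copy, and 0 with 1-NA-PP1, and its call was lost in 5 of the 8 fits with 1 library left out. The hexose transporter HXT17, with a near-identical copy, lay at 0 to 0.991 CPM and was not called.

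More silencing factors were called lower than higher, though not among the 2 that are members. SIR1, which recruits silencing to the mating cassettes and is itself a member, rose by 0.41 with DMSO and 0.37 with 1-NA-PP1, while RPD3, a histone deacetylase also among the members, had -0.02 and -0.09. Of 23 tested factors of this list elsewhere in the genome 4 were called higher and 14 lower with DMSO, with a median of -0.33. With 1-NA-PP1 2 of them were called higher and 11 lower, with a median of -0.20. Of the factors named as background, HDA1 was called higher, at 0.53 with DMSO and 0.51 with 1-NA-PP1. RAP1 (-1.10 and -1.10), SIR3 (-0.55 and -0.52) and CYC8 (-0.58 and -0.58) were called lower, SIR2 was called lower with DMSO alone (-0.32), and TUP1 and SIR4 were not called. Counts of lower calls depend on the scaling: with the deposited factors 46.1% of all features were lower with DMSO. Of all features tested 29.6% were called higher and 28.9% lower with DMSO, and 25.3% and 28.1% with 1-NA-PP1. Whether these changes and those of the members are related was not tested.

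**Figure D4:**
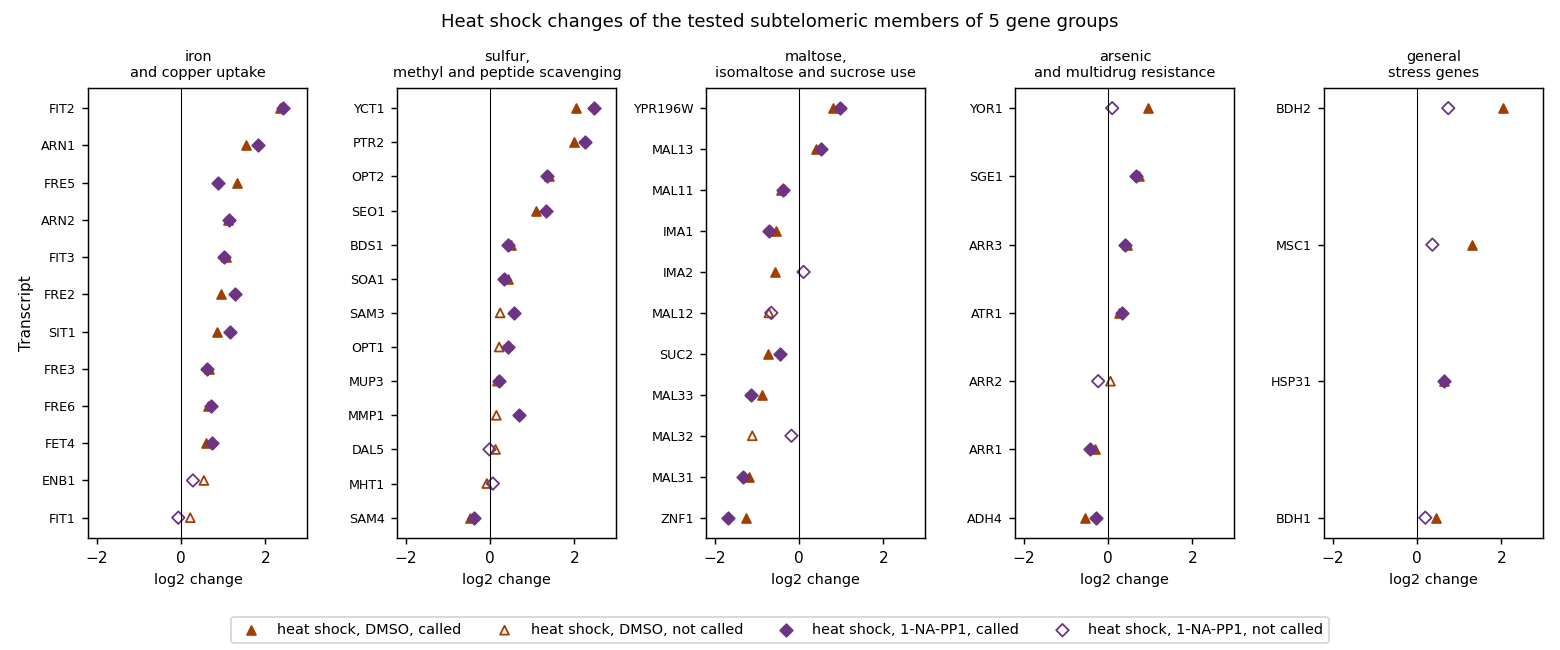
Log2 change under heat shock (horizontal axis) of each tested member of 5 gene groups, with DMSO (triangles) and with 1-NA-PP1 (diamonds), filled where called. Iron uptake members lie to the right of 0 but for FIT1 with 1-NA-PP1, and 9 of 11 members of the maltose and sucrose group lie to the left with DMSO; with the deposited factors the medians of the sulfur and multidrug groups were below 0 in both contrasts, and that of the stress group with 1-NA-PP1.

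Members called under heat shock were spread over the whole window. With DMSO 44 of 110 tested members (40.0%) at 0 to 10 kb were called higher, 40 of 108 (37.0%) at 10 to 20 kb and 43 of 119 (36.1%) at 20 to 30 kb, beside 27.6% of features at 30 to 60 kb and 29.1% of those farther in. Calls of lower were 28.2%, 17.6% and 30.3% in the same 3 bins, 32.0% at 30 to 60 kb and 28.9% farther in. The middle bin held the fewest falls and the most rises of at least 1 on the log2 scale, 19 members (17.6%). Just inside the limit lay YVH1, CWC22 and GUT1, with log2 changes of -0.41, -0.22 and -0.11 with DMSO, and just outside lay YJR142W, RPO26 and ATF1, with 0.36, -0.67 and 0.37.

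**Figure D5:**
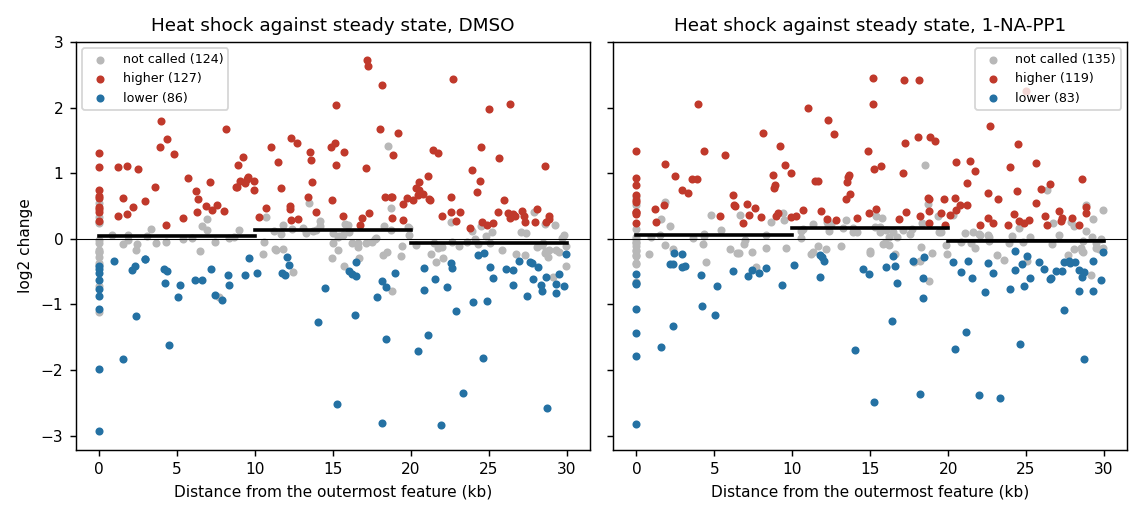
Log2 change under heat shock of each tested member (vertical axis) against its distance from the outermost annotated transcript in kilobases (horizontal axis), with DMSO on the left and 1-NA-PP1 on the right. Called members are red (127 and 119 higher) or blue (86 and 83 lower), black bars are medians of 3 bins, and both directions occur at every distance; with the deposited factors more members were lower than higher.

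Chromosome ends were ranked by median log2 change, and differences between them were not tested. The ends named are the extremes of the 31 ends with at least 5 tested members, and each median rests on few genes. Highest with DMSO was the right end of XV, at 0.66 over 11 members with 8 called higher (29.6% of all features were). It was followed by the left end of XV at 0.49 and the right end of XVI at 0.46. The left end of VII was lowest at -0.58 over 9 members with 5 called lower (28.9% of all features were). It was followed by the right end of VII at -0.22 and the left end of V at -0.18. Neighbours with the same call formed 12 runs of 3 or more members with DMSO, 9 of them higher, holding 46 members (13.6%), and 12.5% of the other features tested lay in such runs. The share of members in runs was thus near that of the genome.

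The longest runs held 6 neighbours each. On the right end of XV these were RDR1, FRE3, YOR381W-A, FIT2, FIT3 and FRE5, of which FRE3 and FRE5 are ferric reductases or their relatives. On the right end of XVI they were HPA2, AQY1, OPT2, YPR195C, YPR196W and SGE1, which include transporters, a water channel and a drug resistance gene, and of which HPA2 and AQY1 overlap each other on opposite strands. A run of 5 lower neighbours lay on the left end of III, with VAC17, MRC1, KRR1, ADF1 and MIC10, of which VAC17, MRC1 and ADF1 have an opposite-strand overlap. On the left end of XII GTT2, HSU1, YLL056C and YCT1, genes of glutathione and sulfur metabolism beside an uncharacterised one, were called higher with DMSO, and MMP1 joined them with 1-NA-PP1.

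Calls under heat shock with DMSO were also counted by the motif before the gene. Of 86 members with a stress response element in the 300 bases upstream 40 (46.5%) were called higher with DMSO, against 87 of 251 (34.7%) without. Among other features the shares were 39.0% and 26.0%. Lower calls were 18.6% of members with this element and 27.9% of those without, and 22.3% and 31.2% of other features. For TTCNNGAA 20 of 45 tested members (44.4%) with the motif and 36.6% without it were called higher, and among other features 30.1% and 28.8%. Called lower were 9 of 45 members with the motif and 26.4% of those without, and among other features 31.9% and 28.7%. No test was made of these shares.

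At steady state no member was called for 1-NA-PP1 against DMSO in the model of all libraries. By edgeR 0 members were called higher and 0 lower, where 0% of all 4901 features were called in either direction. At an unadjusted p under 0.05 there were 58 higher (17.8% of all features were) and 37 lower (15.0% of all features). DESeq2 called 36 members higher (8.69% of all features) and 32 lower (11.4% of all features). The replicates with 1-NA-PP1 at steady state disagreed most: without replicate 1 of that group edgeR called 59 members higher (18.5% of all features) and 43 lower (16.5% of all features). In each fit with 1 library left out, the group concerned rests on 1 library, whose spread is taken from the other groups. Which replicate is nearer the true level cannot be told from such fits. In the model of all libraries the median log2 change of members was 0.08 and that of other features 0.05.

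The members with the smallest p in this contrast all had an adjusted p of 0.0679. OPT2, an oligopeptide transporter family member, had 73.7 and 71.9 CPM with DMSO, against 100.3 and 105 with 1-NA-PP1, a log2 difference of 0.49 (SE 0.06). HPF1 had a log2 difference of 0.89 (SE 0.13), PRD1, a metalloendopeptidase, 0.42 and BDH2 1.61 (SE 0.29). NDI1, the internal NADH dehydrogenase of mitochondria, had 0.37, POT1 1.35 (SE 0.26) and AGP3, an amino acid permease, 0.41. PXR1, needed for rRNA processing, had -0.65, ECM1, which acts in export of the large ribosomal subunit, -0.68 and YML131W -0.52. The libraries of both groups did not overlap for any of these 10, and PRD1, NDI1, POT1 and YML131W overlap an opposite-strand feature.

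Under heat shock 1 member was called higher with 1-NA-PP1 (0.204% of all features were) and 0 lower (0.122% of all features were). It was OPT2, with 192 and 191 CPM with DMSO, against 258 and 262 with 1-NA-PP1, a log2 change of 0.44 (SE 0.06, adjusted p = 0.0447). Leaving out any library other than those of 1-NA-PP1 at steady state lost this call (adjusted p from 0.0692 to 0.401), and with the deposited factors, which moved the median of all features by -0.62, its log2 change was -0.18. At an unadjusted p under 0.05 there were 38 members higher (7.79% of all features) and 14 lower (7.10% of all features), and DESeq2 called 14 higher (2.59% of all features) and 2 lower (2.04% of all features). Without replicate 1 of 1-NA-PP1 at steady state edgeR called 8 higher (2.09% of all features) and 5 lower (2.66% of all features), and without replicate 2 also 8 (2.11%) and 5 (2.70%). With the deposited factors 0 were called higher (0.0408% of all features) and 128 lower (47.5% of all features).

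The next smallest p belonged to genes that were not called. PTR2 had a log2 difference of 0.35 (adjusted p = 0.0703), YCT1 0.44, YLL056C 0.44, YPR196W 0.40 and PBI1 0.50. IMA2, an isomaltase with a near-identical copy, had 4.27 and 3.37 CPM with DMSO, against 6.50 and 6.73 with 1-NA-PP1 under heat shock, a log2 difference of 0.78 (SE 0.17, adjusted p = 0.0898). FRE2, a ferric reductase, had 0.61, YCR095W-A 0.44 and YML131W -0.44. With the deposited factors the log2 difference turned negative for OPT2, PTR2, YCT1, YLL056C, YPR196W, PBI1 and YCR095W-A.

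The heat shock change itself was compared between both treatments. No member was called by edgeR in this difference, 0 higher (0% of all features) and 0 lower (0.0204% of all features). At an unadjusted p under 0.05 there were 24 higher with 1-NA-PP1 (5.67% of all features) and 22 lower (7.81% of all features). DESeq2 called 0 higher (0.204% of all features) and 1 lower, PRD1 (0.286% of all features). Without replicate 1 of 1-NA-PP1 at steady state 29 were called higher (9.00% of all features) and 26 lower (8.34% of all features) by edgeR.

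PRD1, which overlaps an opposite-strand feature, had 314 and 325 CPM with DMSO, against 406 and 448 with 1-NA-PP1 at steady state, and 601 and 571 with DMSO, against 549 and 569 with 1-NA-PP1 under heat shock. The treatments were apart before heat shock and closer during it, with a log2 difference of changes of -0.49 (SE 0.10, adjusted p = 0.357). HPF1, at -0.71, and MSC1, at -0.93, had differences in the same direction. KRR1, a factor of small ribosomal subunit synthesis, had 82.0 and 85.8 CPM with DMSO, against 55.8 and 34.1 with 1-NA-PP1 at steady state, and 50.1 and 58.6 and then 56.6 and 59.0 under heat shock, a difference of 0.99 (SE 0.28, adjusted p = 0.357). ELP6, a subunit of Elongator, had 0.59 and SEC53, phosphomannomutase, 0.49, both with an opposite-strand overlap. The other values were 0.47 for YCR095W-A, -0.42 for the RNA-binding protein SBP1, -0.35 for NDI1 and -0.55 for YJL213W.

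The cultures were measured in bulk, so RNA made per cell and the share of cells that make it cannot be told apart for any member.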

How the data were processed

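Newly made RNA of 8 libraries in 4 groups was analysed. Per the submitters' processing notes the tools were STAR 2.5.2b, cutadapt 1.9.1, HTSeq, SAMtools and DESeq2 on build sacCer3. All tests used the counts of reads per transcript that the authors deposited. They also deposited normalised counts, a signal equal to the count divided by 1 factor per library, from which those factors were recovered for an alternative scaling. Per the file headers, the authors' deposited tables of both heat shock contrasts hold log2 fold changes and adjusted p-values, and other deposited columns (unit other) hold coordinates. How the factors were estimated is not given in the sources used here.

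Members were found by position, and 338 of the 341 matched the RefSeq gene table (assembly R64) by name. The members, the gene lists and the rule for named genes were chosen with earlier results of these data known. edgeR 4.0.16 in R 4.3.3 was run with filterByExpr (4901 features kept), TMM factors and a quasi-likelihood fit of all libraries at once, with two-sided tests and Benjamini-Hochberg adjustment over all features. TMM sets the bulk of features to no change. CPM are TMM-scaled. The smallest two-sided p of an exact permutation test at this group size is 0.333. The median count was 812 for members and 1371 for other features in the shallowest; floors from counts of 0 use 3 counts and cover counting error only. Genes named were, per contrast, the 10 largest rises and falls among called members whose mean log2 CPM reached 3 and whose libraries did not overlap, or the 10 smallest p, plus list members, extremes of level and the ends of the window. Copies were places matching at least 50% of a transcript at 90% identity or more. Alternatives were RLE factors, DESeq2 1.42.0, no count filter, a replicate block, the deposited factors, each library left out, a window of 20 kb, and members without overlaps or copies.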

Additional observations from a re-analysis of the deposited data

How the results depend on the processing

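The lower level of members and their higher median change relative to other features under heat shock kept their direction under the alternatives run. Both set members against other features of the same libraries, so other scaling factors can hardly move them and are no check of them. In the authors' deposited tables the members' own medians were -0.25 (DMSO) and -0.55 (1-NA-PP1), beside -0.33 and -0.66 for other features. The ratio of median levels was 0.426 within 20 kb, 0.399 within 30 kb of the reference ends, 0.603 without copies and 0.452 without opposite-strand overlaps, and 0.544 to 0.554 with 1 library left out. Member minus other medians of log2 change were, within 20 kb, 0.055 (steady state) and 0.075 (heat shock) for 1-NA-PP1, and 0.14 and 0.17 for heat shock with DMSO and 1-NA-PP1. Within 30 kb of the reference ends they were 0.061 for 1-NA-PP1 under heat shock and 0.15 and 0.16 for heat shock with DMSO and 1-NA-PP1. Without opposite-strand overlaps they were 0.075 for 1-NA-PP1 under heat shock, 0.052 for the difference of changes and 0.095 for heat shock with DMSO, which was 0.11 without copies. With 1 library left out the median was 0.010 to 0.040 for the difference and 0.10 to 0.12 for heat shock with 1-NA-PP1.

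Counts of called members were smaller in the smaller windows, which hold 221 (20 kb) and 204 (reference ends) of the 341 members. They were 84 higher and 50 lower (DMSO) and 44 lower (1-NA-PP1) within 20 kb. Within 30 kb of the reference ends they were 78 higher and 47 lower (DMSO) and 75 higher and 41 lower (1-NA-PP1). Without opposite-strand overlaps 51 were lower with 1-NA-PP1. Fewer members are tested in these, so the counts alone do not show a change of share. With DMSO 40.0% of tested members were higher at 0 to 10 kb and 37.0% at 10 to 20 kb, beside 29.6% of all features. Lower calls were 28.2% and 17.6%, beside 28.9% of all features. With 1-NA-PP1 lower calls were 22.7% and 17.6%, beside 28.1% of all features. With the deposited factors heat shock gave 60 higher and 135 lower (DMSO) and 15 higher (1-NA-PP1), and the authors' deposited tables gave 57 higher (DMSO) and 8 higher and 50 lower (1-NA-PP1). For 1-NA-PP1 under heat shock those factors gave 0 higher and 128 lower, with log2 changes of -0.18 for OPT2, -0.12 for PBI1, -0.27 for PTR2, -0.18 for YCR095W-A, -0.20 for YCT1, -0.17 for YLL056C and -0.21 for YPR196W, and at steady state 1 higher. DESeq2 gave 36 higher and 32 lower at steady state, 14 and 2 under heat shock and 1 lower for the difference. Other causes of these shifts were not tested.

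Leaving out a library gave 0 to 8 higher and up to 5 lower for 1-NA-PP1 under heat shock, 0 to 59 higher and 0 to 43 lower at steady state, 0 to 29 higher and 0 to 26 lower for the difference, and 55 to 86 lower for heat shock with 1-NA-PP1. The highest values at steady state and for the difference came without replicate 1 of 1-NA-PP1 at steady state, and the 55 without replicate 1 of 1-NA-PP1 under heat shock. The lone library was then assumed to vary like the other groups. Whether replicate numbers pair the libraries was not settled. The correlation of the deviations of replicate 1 was -0.31 between DMSO and 1-NA-PP1 at steady state and -0.25 to 0.26 between other groups. With the replicate block 0 members were called higher for 1-NA-PP1 under heat shock (OPT2 at adjusted p = 0.103), and 122 higher and 83 lower (DMSO) and 114 higher and 78 lower (1-NA-PP1) under heat shock. A crossed pairing at steady state, added after seeing the data as were the reference ends and the copies, gave 14 higher and 17 lower. The share of all features called was not counted for either block. A comparison of protein copies was not run, since no protein table was used here. Depth limits the lowest members most: HXT17 and COS12 lay near 1 CPM or below under heat shock.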
